A study of Homo sapiens with 24 samples.

Results

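The ATF4 and amino acid response genes described here are 35 named genes: ATF4 itself, other transcription factors of the response, stress effectors, enzymes that make serine, one-carbon units and other amino acids, and amino acid transporters. They were taken by name from the 59385 gene symbols of a table of RNA sequencing counts, and all 35 were present. The counts came from A549 and H1299, established non-small cell lung cancer cell lines, which had been stably transduced by lentivirus with FLAG-tagged SIRT6 or with the FLAG-tagged empty vector. SIRT6 is a NAD-dependent deacylase of chromatin. In each line the constructs were wild-type SIRT6 (WT), an acetylation-deficient mutant (K3R), an acetylation-mimetic mutant (K3Q) and the empty vector (Ctr), and all cells therefore carried a lentiviral insertion. The labels give no positions for the mutated lysines and do not say whether a line was 1 clone. Each of the 8 groups had 3 libraries, numbered 1-1, 1-2 and 2-2. The first digit is the biological replicate and the second the batch, so 1-1 and 1-2 are both biological replicate 1, and 2-2 is biological replicate 2 in the batch of 1-2. The labels do not say whether 1-1 and 1-2 came from separate cultures, so the p-values measure the spread between these libraries, which may be partly technical.

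Cells that run short of amino acids, or whose endoplasmic reticulum is overloaded, phosphorylate the translation factor eIF2. General protein synthesis then slows while the mRNA of the transcription factor ATF4 is translated more. ATF4 pairs with other leucine zipper factors at C/EBP-ATF response elements and turns on genes for amino acid synthesis and import, and, when the stress lasts, for cell death and for feedback. In lung cancer cells the same programme is known to feed serine and glycine synthesis. Protein was not measured here, and the mRNA level of ATF4 is only one layer of its control.

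The libraries held 16434492 to 19412274 counted reads in A549 and 14943189 to 22856407 in H1299. SIRT6 reads, which include the introduced and the cells' own gene, were at 1460 to 3007 counts per 1000000 reads after TMM scaling (CPM) in A549 WT, 1467 to 3454 in K3R and 1571 to 1805 in K3Q cells, against 23.9 to 33.2 CPM in Ctr cells. In H1299 they were at 2307 to 6319 CPM in WT, 2589 to 5677 in K3R and 10298 to 14062 in K3Q cells, against 32.1 to 42.6 CPM in Ctr cells. The epithelial keratin KRT19 marked the lines, with 135 to 330.2 CPM in A549 libraries and at most 0.381 CPM in H1299 libraries. The epithelial markers EPCAM and CDH1 were likewise low in H1299, at no more than 0.314 and 0.592 CPM. The epithelial keratins KRT8 and KRT18 were present in H1299 too, at 235 to 448.1 and 366.9 to 602.8 CPM. In A549 they were at 3129 to 8334 and 1194 to 3643 CPM. The summed CPM of leukocyte, endothelial and fibroblast marker lists were at most 8.32, 1.11 and 2.48 in any library. One pair of libraries stood apart: A549 K3Q 1-2 and 2-2 differed with a chi-square per degree of freedom of 2.60 over genes, against 16.11 or more for every other pair of libraries within a group. They differed by more than sampling noise and were kept as 2 libraries.

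Library number 2-2 is shown apart, since it set the 35 genes apart in A549. Each gene's log2 CPM was set against its mean over the 12 libraries of its line, and the median over the 35 genes was taken per library. In A549 the 2-2 libraries had medians of 0.90 in WT, 0.95 in K3R, -0.48 in K3Q and 0.85 in Ctr cells. The 1-1 and 1-2 libraries of that line lay between -0.42 and 0.05. The K3Q 2-2 library was therefore the only A549 2-2 library without high values. In H1299 the 2-2 medians were -0.50 in WT, 0.10 in K3R, 0.57 in K3Q and 0.75 in Ctr cells, and the highest 1-1 median was 0.68, in K3Q cells. The 1-2 libraries of H1299 were low in all 4 constructs, at -0.50 in WT, -0.52 in K3R, -0.19 in K3Q and -0.45 in Ctr cells. The median over all tested genes stayed within 0.05 of 0 in every library.

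**Figure D1:**
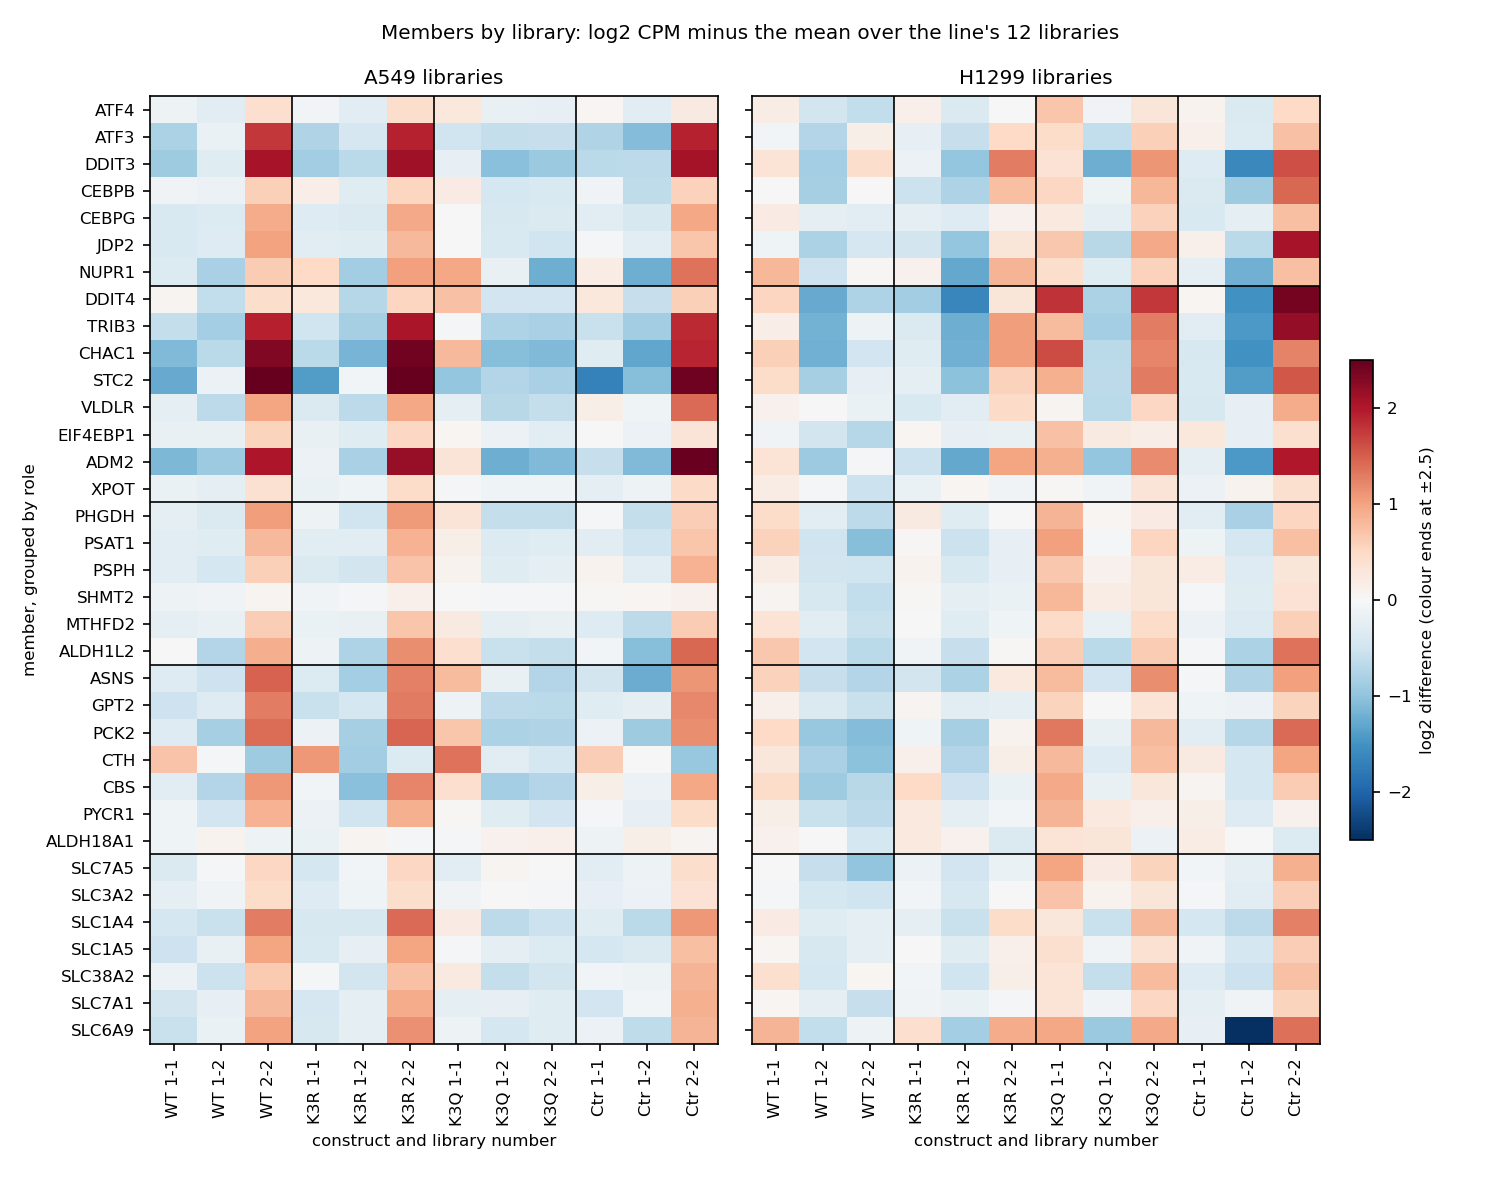
Heatmap of the 35 genes (rows, ordered by role) in the 24 libraries (columns), coloured by log2 CPM minus the gene's mean over the 12 libraries of its line, with the colour scale ending at 2.5 either way. The A549 2-2 columns of WT, K3R and Ctr cells are high over nearly all rows, with medians of 0.90, 0.95 and 0.85, while A549 K3Q 2-2 (median -0.48) is not.

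In WT, K3R and Ctr cells of A549, most of the 35 genes were higher in biological replicate 2 than in replicate 1. Libraries 2-2 and 1-2, which share a batch, were compared over WT, K3R and Ctr cells (n = 3 pairs, construct as a term), leaving out K3Q because its 2-2 library was known to differ. The counts therefore describe those 3 constructs and not replicate 2 as a whole, and with K3Q included 0 genes passed. The 2-2 libraries of the 3 constructs deviated together (correlations of 0.719 to 0.833), so the pairs are not independent cultures of replicate 2. The p-values measure the spread between constructs and not that between cultures. Of the 35 genes 32 were higher in 2-2 at an adjusted p under 0.05 and 0 were lower, by edgeR's quasi-likelihood test with Benjamini-Hochberg adjustment over 15275 genes. In the same comparison 36.0% of all tested genes passed in either direction. The median log2 change was 1.17 over the 35 genes. DESeq2 passed 32, and leaving out 1 construct gave 32 to 34. In bulk RNA, more cells that express a gene and more RNA per cell cannot be told apart, and the labels do not say in what the cultures of replicates 1 and 2 differed.

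All 7 transcription factors passed as higher, with a median log2 change of 1.32. ATF4 (GRCh38 chr22:39519695-39522685, plus strand) had 513, 521, 337 and 450.2 CPM in the 2-2 libraries of WT, K3R, K3Q and Ctr cells, against 324, 322, 338 and 319 CPM in 1-2 and 351, 369, 463 and 399.6 CPM in 1-1. It rose by 0.63 on the log2 scale (SE 0.07, 1.55-fold, adjusted p = 0.00012) in edgeR's quasi-likelihood test with Benjamini-Hochberg adjustment, the source of all adjusted p-values below. Its A549 K3Q 2-2 value stood with the 1-2 values, and its K3Q 1-1 value lay above the Ctr 2-2 value. ATF3, an ATF4 target that both represses and activates stress genes, had 48.3, 53.7, 9.51 and 54.3 CPM in the 2-2 libraries of WT, K3R, K3Q and Ctr cells, against 12.6, 10.6, 9.35 and 6.67 CPM in 1-2 and 8.16, 8.42, 9.94 and 8.38 CPM in 1-1. DDIT3, which encodes the pro-apoptotic factor CHOP, had 41.6, 43.02, 5.16 and 42.01 CPM in the 2-2 libraries of WT, K3R, K3Q and Ctr cells, against 7.93, 6.15, 4.71 and 6.21 CPM in 1-2 and 5.24, 5.32, 8.56 and 6.11 CPM in 1-1. Both genes were several times higher in the 2-2 libraries of WT, K3R and Ctr cells than in any other A549 library, with no overlap. ATF3 rose by 2.42 on the log2 scale (SE 0.17, 5.34-fold, adjusted p = 1.35e-05), and DDIT3 rose by 2.66 on the log2 scale (SE 0.12, 6.31-fold, adjusted p = 1.16e-06). JDP2, a repressor that binds AP-1 and C/EBP-ATF sites, had 73.9, 64.7, 25.99 and 59.7 CPM in the 2-2 libraries of WT, K3R, K3Q and Ctr cells, against 29.4, 29.9, 28.05 and 30.2 CPM in 1-2 and 28.1, 29.96, 36.3 and 35.7 CPM in 1-1. The 3 JDP2 values of WT, K3R and Ctr 2-2 again lay above the other 9 libraries. The remaining factors also rose: CEBPG, a dimer partner of ATF4, by 1.32, CEBPB, a C/EBP factor of stress and inflammation, by 0.94, and NUPR1, a small chromatin protein of stressed cells, by 2.06 on the log2 scale.

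The 8 stress effectors rose most as a group, with a median log2 change of 2.21 and all 8 passing. TRIB3, a pseudokinase that feeds back on ATF4 and CHOP, had 722, 768, 106 and 685 CPM in the 2-2 libraries of WT, K3R, K3Q and Ctr cells, against 104, 105, 109 and 103 CPM in 1-2 and 125, 133, 181 and 127 CPM in 1-1. CHAC1, which degrades glutathione, had 64.2, 68.7, 5.91 and 48.8 CPM in the 2-2 libraries of WT, K3R, K3Q and Ctr cells, against 7.99, 5.72, 6.07 and 5.16 CPM in 1-2 and 5.91, 8.05, 22.6 and 10.4 CPM in 1-1. The 2-2 libraries of WT, K3R and Ctr cells were high and those of K3Q cells were not, and CHAC1 was also somewhat high in K3Q 1-1. TRIB3 rose by 2.82 on the log2 scale (SE 0.07, 7.04-fold, adjusted p = 2.55e-08) and CHAC1 by 3.28 on the log2 scale (SE 0.12, 9.72-fold, adjusted p = 3.92e-07). STC2, a secreted glycoprotein induced by stress, had 968, 971, 77.6 and 738 CPM in the 2-2 libraries of WT, K3R, K3Q and Ctr cells, against 123, 130.04, 82.3 and 64.8 CPM in 1-2 and 56.7, 51.6, 69.6 and 42.3 CPM in 1-1. ADM2, a secreted peptide of the adrenomedullin family, had 20.2, 22.7, 2.24 and 27.6 CPM in the 2-2 libraries of WT, K3R, K3Q and Ctr cells, against 2.58, 2.77, 2.04 and 2.22 CPM in 1-2 and 2.19, 4.46, 6.15 and 3.26 CPM in 1-1. Neither gene's high 2-2 values overlapped with another A549 library. STC2 rose by 3.13 on the log2 scale (SE 0.12, 8.77-fold, adjusted p = 3.92e-07) and ADM2 by 3.22 on the log2 scale (SE 0.17, 9.29-fold, adjusted p = 2.45e-06). VLDLR, a lipoprotein receptor, had 51.3, 51.01, 17.1 and 69.6 CPM in the 2-2 libraries of WT, K3R, K3Q and Ctr cells, against 16.6, 16.4, 16.04 and 24.05 CPM in 1-2 and 22.1, 20.1, 22.3 and 28.9 CPM in 1-1. It rose by 1.61 on the log2 scale, and Ctr cells had the highest VLDLR value at each library number. DDIT4, an inhibitor of mTORC1, rose by 1.17, EIF4EBP1, a repressor of cap-dependent translation, by 0.70, and XPOT, which exports tRNA from the nucleus, by 0.61 on the log2 scale.

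**Figure D2:**
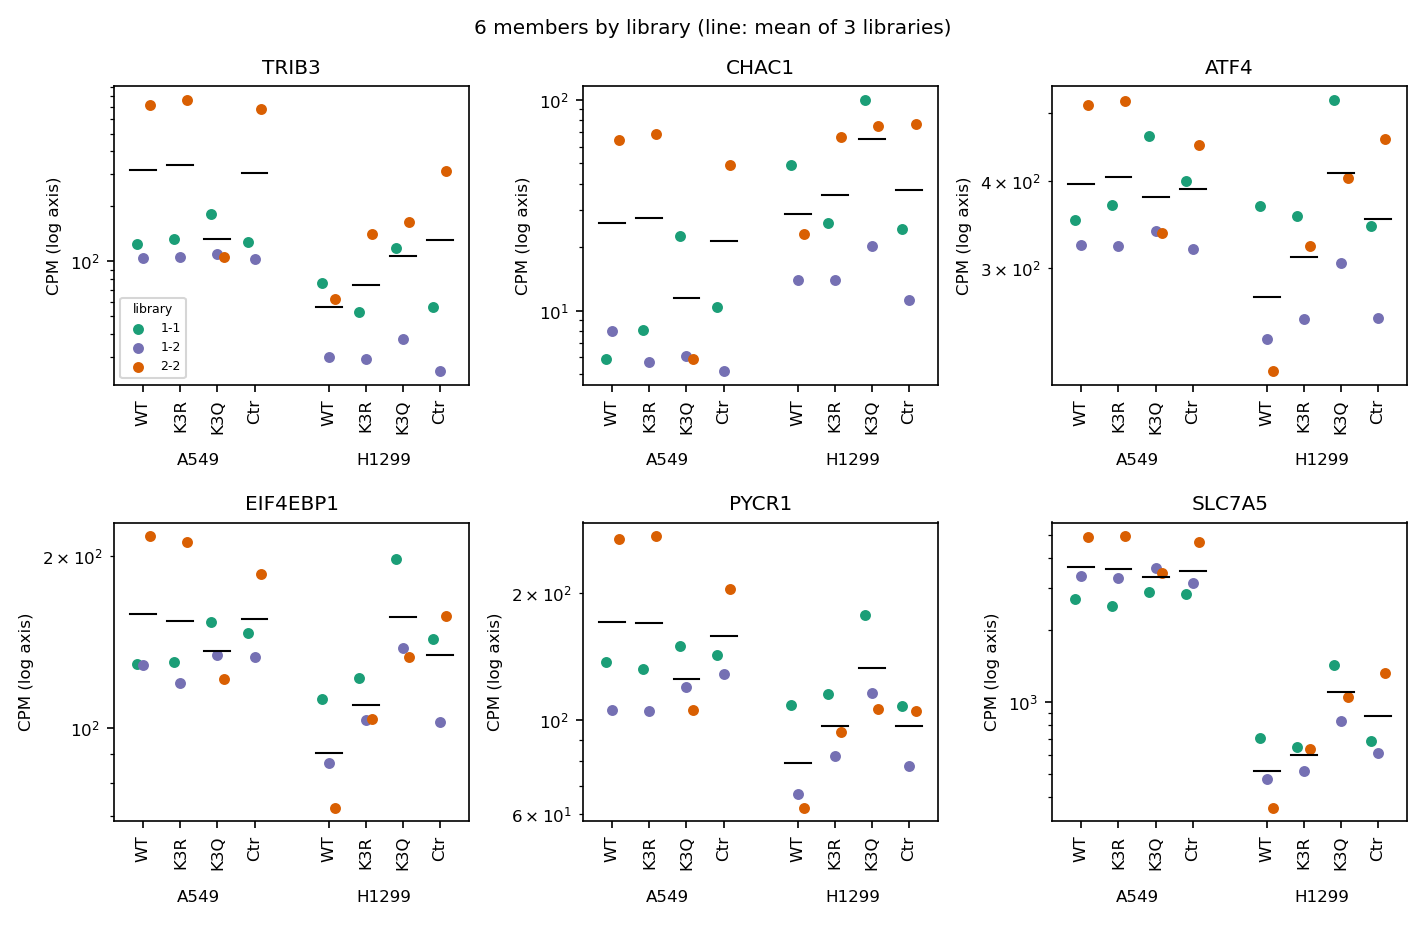
CPM (log axis) of TRIB3, CHAC1, ATF4, EIF4EBP1, PYCR1 and SLC7A5 in every library, by line and construct, with the library number shown by the marker. TRIB3 had 106 CPM in A549 K3Q 2-2, against 722, 768 and 685 CPM in A549 WT, K3R and Ctr 2-2.

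Among the serine and one-carbon enzymes 5 of 6 passed as higher, with a median log2 change of 1.14. PHGDH, the first enzyme of serine synthesis, rose by 1.41 on the log2 scale (SE 0.08, 2.66-fold, adjusted p = 3.94e-06). The next enzymes of that pathway, PSAT1 and PSPH, rose by 1.15 and 1.13 on the log2 scale. The mitochondrial folate enzymes ALDH1L2 and MTHFD2 rose by 2.04 and 0.99. SHMT2, which makes glycine from serine in mitochondria, had 206, 215, 194 and 213 CPM in the 2-2 libraries of WT, K3R, K3Q and Ctr cells, against 187, 192, 194 and 205 CPM in 1-2 and 180.1, 187, 198 and 202 CPM in 1-1. Its values were almost level across the libraries, and its log2 change of 0.13 did not pass (adjusted p = 0.148, edgeR quasi-likelihood).

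Of the 7 other amino acid enzymes 5 passed as higher, with a median log2 change of 1.60. GPT2, the mitochondrial alanine aminotransferase, had 125, 129, 32.6 and 119 CPM in the 2-2 libraries of WT, K3R, K3Q and Ctr cells, against 41.5, 38.4, 33.00 and 44.2 CPM in 1-2 and 36.4, 35.4, 47.4 and 42.3 CPM in 1-1. Its WT, K3R and Ctr 2-2 values lay above the other 9, and it rose by 1.60 on the log2 scale. PCK2, the mitochondrial phosphoenolpyruvate carboxykinase, rose by 2.19 on the log2 scale (SE 0.08, 4.57-fold, adjusted p = 3.92e-07). The proline synthesis enzyme PYCR1 rose by 1.14 and the transsulfuration enzyme CBS by 1.75. A near-identical copy of CBS exists in the genome, so its counts are uncertain. ASNS, which makes asparagine, rose by 2.21 from low levels of at most 9.62 CPM in A549. Of the annotated exon bases of ASNS 44.6% are shared with an overlapping transcript on the same strand, so its count is uncertain too. ALDH18A1, which starts proline synthesis from glutamate, had 109.5, 116, 130.4 and 125 CPM in the 2-2 libraries of WT, K3R, K3Q and Ctr cells, against 128, 126, 129.8 and 134 CPM in 1-2 and 112, 108, 118 and 109.9 CPM in 1-1. CTH, which splits cystathionine to cysteine, had its highest values in the 1-1 libraries. Their log2 changes of -0.13 and -0.44 did not pass (adjusted p = 0.172 and 0.303, edgeR quasi-likelihood).

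All 7 amino acid transporters passed as higher, with a median log2 change of 1.14. SLC38A2, an importer of small neutral amino acids that starvation induces, had 529.9, 559, 244 and 606 CPM in the 2-2 libraries of WT, K3R, K3Q and Ctr cells, against 231, 244, 222 and 306 CPM in 1-2 and 302, 324, 390.4 and 322 CPM in 1-1. Its WT, K3R and Ctr 2-2 values lay above the other 9, with a log2 change of 1.14. The other carriers of neutral amino acids, SLC1A4 and SLC1A5, rose by 1.81 and 1.17. The cationic carrier SLC7A1 rose by 1.06 and the glycine carrier SLC6A9 by 1.36. The light and heavy chains of the leucine exchanger, SLC7A5 and SLC3A2, rose least, by 0.58 and 0.54 on the log2 scale. Over all roles, 30 of the 35 genes (85.7%) had the WT, K3R and Ctr 2-2 libraries above the other 9 A549 libraries, against 2048 of 16120 tested genes (12.7%). The 5 exceptions were ATF4, DDIT4, NUPR1, CTH and ALDH18A1.

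In A549 K3Q cells the 2-2 library did not show this rise. The median of 2-2 minus 1-2 over the 35 genes was 1.28 in WT, 1.30 in K3R and 0.00 in K3Q cells, against 1.20 in Ctr cells. In that order 33, 34, 18 and 33 genes were higher in 2-2. The K3Q differences ran only from -1.04 (NUPR1) to 0.15 (SLC6A9). Set against the shift in the other 3 constructs, the K3Q shift was different by -2.85 for TRIB3 and by -0.63 for ATF4 on the log2 scale. A fit of that difference passed 31 of 35 genes, all lower, beside 3.89% of all 15087 genes, and 25 to 32 when another construct was left out. It is given as a description and not as a test: K3Q was singled out after its values had been seen, and its arm is 1 pair of libraries with no spread of its own. The same fit of the WT, K3R and Ctr shift each passed 0 of the 35 genes, with 0% of all genes passing and 0 of the 35 at an unadjusted p under 0.05. DESeq2 also passed 0 in each of these 3. These 3 fits kept the K3Q pair among the other constructs, which widened their spread, and each arm is again 1 pair. They therefore cannot show that the shifts of WT, K3R and Ctr cells were alike. With K3Q left out, the count for the Ctr shift no longer stayed at 0, though its arm was still 1 pair. The K3Q pair is the one with the chi-square of 2.60. Whether the K3Q 2-2 library was a separate culture was not tested.

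**Figure D3:**
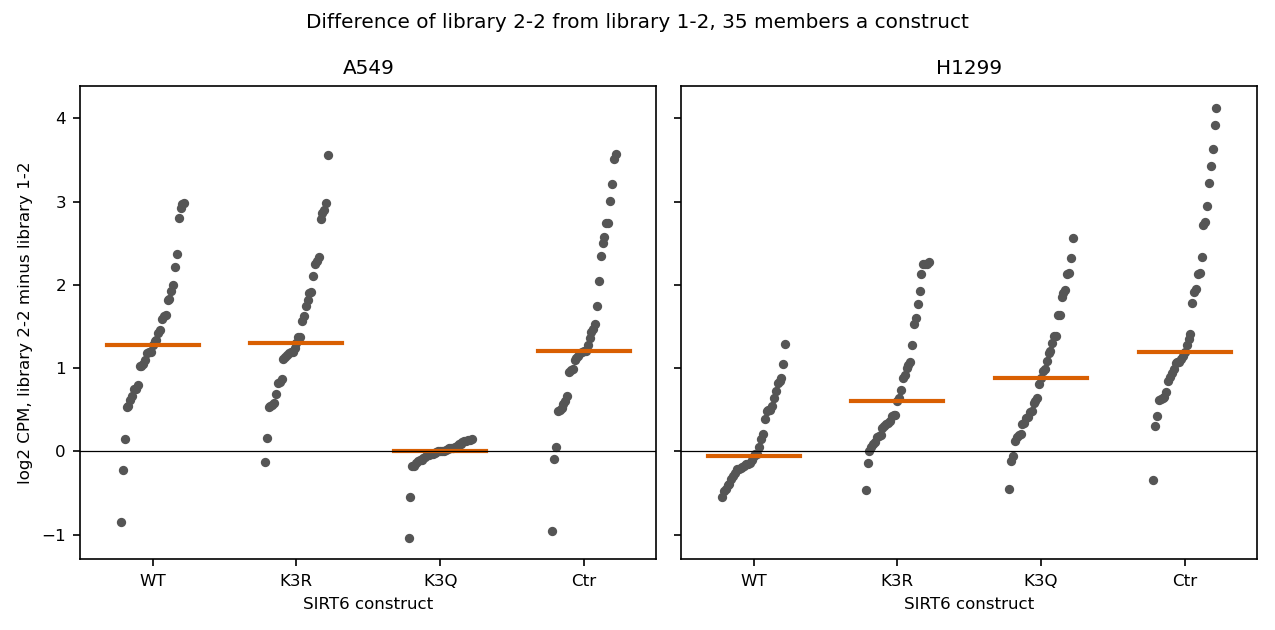
Difference of log2 CPM between library 2-2 and library 1-2 for each of the 35 genes (points), by line and construct, with a line at the median. The A549 medians are 1.28 in WT, 1.30 in K3R, 0.00 in K3Q and 1.20 in Ctr cells, and the H1299 medians are -0.05, 0.60, 0.87 and 1.20 in the same constructs.

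In H1299 library 1-1 was also above 1-2 for most of the 35 genes. The comparison of 2-2 with 1-2 kept all 4 constructs here, while that of A549 left out K3Q. The counts of the lines are therefore not of like sets. In WT, K3R, K3Q and Ctr cells 35, 33, 35 and 31 of the 35 genes were higher in 1-1 than in 1-2. The median differences of 1-1 from 1-2 were 0.70, 0.47, 0.81 and 0.47 in that order. The highest library was 1-1 for 33 genes in WT and 19 in K3Q cells. It was 2-2 for 22 genes in K3R and 33 in Ctr cells. Over all 4 constructs (n = 4 pairs) 20 of 34 tested genes were higher and 1 was lower in 2-2 than in 1-2, with 12.4% of all tested genes passing and a median log2 change of 0.65 over the 34 genes. DESeq2 passed 19 as higher and 1 as lower. The 21 that passed became 12 without Ctr and 28 without WT. As in A549, the p-values measure the spread between constructs and not that between cultures. NUPR1 was too low to be tested. Higher genes were 5 of 6 transcription factors, 6 of 8 stress effectors, 1 of 6 serine and one-carbon enzymes, 4 of 7 other enzymes and 4 of 7 transporters. TRIB3 had 61.96, 141, 164 and 312 CPM in the 2-2 libraries of WT, K3R, K3Q and Ctr cells, against 29.98, 29.1, 37.6 and 25.03 CPM in 1-2 and 76.3, 52.9, 118 and 56.2 CPM in 1-1. DDIT3 had 34.2, 61.02, 54.4 and 76.7 CPM in the 2-2 libraries of WT, K3R, K3Q and Ctr cells, against 13.9, 12.7, 10.8 and 8.10 CPM in 1-2 and 31.8, 22.5, 32.3 and 20.1 CPM in 1-1. In both genes the Ctr 2-2 library was the highest, and the WT 2-2 library was low beside the other 2-2 libraries. TRIB3 rose by 2.28 on the log2 scale (SE 0.28, 4.86-fold, adjusted p = 0.000473) and DDIT3 by 2.28 on the log2 scale (SE 0.22, 4.86-fold, adjusted p = 0.00011). DDIT4 had 31.1, 65.3, 179.8 and 280.3 CPM in the 2-2 libraries of WT, K3R, K3Q and Ctr cells, against 21.96, 17.1, 30.4 and 18.5 CPM in 1-2 and 77.02, 29.2, 185 and 54.8 CPM in 1-1. Its K3Q 1-1 value was as high as its K3Q 2-2 value, and it rose by 2.26 on the log2 scale (SE 0.37, 4.80-fold, adjusted p = 0.00237).

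ADM2 had 9.18, 18.9, 21.7 and 38.3 CPM in the 2-2 libraries of WT, K3R, K3Q and Ctr cells, against 5.05, 3.87, 4.82 and 3.47 CPM in 1-2 and 12.1, 6.57, 17.7 and 8.12 CPM in 1-1 in H1299. SLC6A9 had 6.03, 12.6, 12.7 and 17.3 CPM in the 2-2 libraries of WT, K3R, K3Q and Ctr cells, against 4.27, 3.63, 3.43 and 0.882 CPM in 1-2 and 12.03, 8.80, 13.1 and 5.67 CPM in 1-1. CHAC1 had 23.02, 66.5, 75.4 and 76.4 CPM in the 2-2 libraries of WT, K3R, K3Q and Ctr cells, against 13.9, 13.9, 20.1 and 11.2 CPM in 1-2 and 48.8, 26.2, 100.2 and 24.5 CPM in 1-1. In WT cells each of the 3 was higher in 1-1 than in 2-2, and in Ctr cells 2-2 was the highest. Their log2 changes were 2.22, 1.97 and 1.94 (adjusted p = 0.000618, 0.00618 and 0.000376, edgeR quasi-likelihood). The gene that fell was ALDH18A1, with 73.7, 77.7, 90.01 and 78.2 CPM in the 2-2 libraries of WT, K3R, K3Q and Ctr cells, against 101, 107, 124 and 99.5 CPM in 1-2 and 108, 118, 126 and 114 CPM in 1-1. It was the lowest in 2-2 in every construct, and its log2 change was -0.42 on the log2 scale (SE 0.08, 0.746-fold, adjusted p = 0.0057). ATF4 itself, with 213, 322, 403 and 459 CPM in the 2-2 libraries of WT, K3R, K3Q and Ctr cells, against 237, 254, 305 and 255 CPM in 1-2 and 368, 356, 523 and 345 CPM in 1-1, had a log2 change of 0.37 that did not pass (adjusted p = 0.0672, edgeR quasi-likelihood). By construct, the median of 2-2 minus 1-2 was -0.05 in WT, 0.60 in K3R and 0.87 in K3Q cells, against 1.20 in Ctr cells. The tests of a single construct's shift against the other 3 passed 0 of the 35 genes and 0% of all genes in each of the 4 constructs. At an unadjusted p under 0.05 they counted 25 genes for WT, 0 for K3R, 2 for K3Q and 24 for Ctr, and DESeq2 passed 0 in each. With 1 other construct left out, the genes that passed the adjusted threshold numbered as many as 18 for WT (without K3R), 1 for K3R (without WT), 19 for K3Q (without Ctr) and 31 for Ctr (without K3Q).

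The promoters of the 35 genes were searched for the C/EBP-ATF response element, written as TGATGNAA and its reverse complement TTNCATCA. No other motif was searched. Of the 35 genes 28 had a RefSeq promoter (250 bases before to 50 after the start, GRCh38.p14), and 9 of these (32.1%) held a match: ATF3, SLC1A4, ASNS, SLC3A2, SLC7A1, JDP2, CHAC1, CEBPG and SLC1A5. Of all RefSeq genes with a promoter, 1217 of 27305 (4.46%) held one, and of all promoters 1270 of 35116 (3.62%). The 35 genes were gathered largely as known targets of ATF4, so this share describes them and tests nothing. PSPH, SHMT2, ALDH1L2, GPT2, NUPR1, PYCR1 and EIF4EBP1 had no entry. A gene counted as holding a match if any of its promoters did. The 5 promoters below belong to the genes with the largest rise in A549 2-2 libraries whose match lies wholly before the start. ATF3, ASNS and CEBPG had 2 promoters each and SLC1A5 had 3, and one with a match is shown. The start is that of the promoter shown. SLC1A4 rose more than CEBPG and SLC1A5, but its match begins 7 bases before the start and runs over it. The sequences show the 250 bases before the start, 5' to 3' on the gene's strand, with the match in capitals. The match begins 209 bases before the start in CHAC1 (chr15:40953221-40953470 on the plus strand), 191 in ATF3 (chr1:212565157-212565406 on the plus strand), 68 in ASNS (chr7:97872409-97872658 on the minus strand), 42 in CEBPG (chr19:33373863-33374112 on the plus strand) and 97 in SLC1A5 (chr19:46784815-46785064 on the minus strand). A match is not evidence of binding, which was not measured.
CHAC1: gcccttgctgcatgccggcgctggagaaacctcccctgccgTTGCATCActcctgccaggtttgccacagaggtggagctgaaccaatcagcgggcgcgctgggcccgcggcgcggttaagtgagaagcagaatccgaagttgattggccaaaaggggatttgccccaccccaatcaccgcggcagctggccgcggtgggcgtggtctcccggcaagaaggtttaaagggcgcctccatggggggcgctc
ATF3: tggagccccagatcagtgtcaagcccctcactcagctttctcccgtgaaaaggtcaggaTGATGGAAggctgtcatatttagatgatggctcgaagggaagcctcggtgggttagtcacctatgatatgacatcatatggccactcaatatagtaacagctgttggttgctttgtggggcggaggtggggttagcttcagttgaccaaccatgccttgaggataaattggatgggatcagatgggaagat
ASNS: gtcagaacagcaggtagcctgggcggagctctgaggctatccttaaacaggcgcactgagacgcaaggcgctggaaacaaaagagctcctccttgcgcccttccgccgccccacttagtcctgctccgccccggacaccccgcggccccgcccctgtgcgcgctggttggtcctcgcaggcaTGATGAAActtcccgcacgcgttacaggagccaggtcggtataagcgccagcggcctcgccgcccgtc
CEBPG: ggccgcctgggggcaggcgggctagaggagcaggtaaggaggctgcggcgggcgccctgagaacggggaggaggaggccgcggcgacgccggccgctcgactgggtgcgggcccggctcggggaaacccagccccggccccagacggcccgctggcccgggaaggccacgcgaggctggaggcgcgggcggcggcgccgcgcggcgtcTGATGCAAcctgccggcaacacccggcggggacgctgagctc
SLC1A5: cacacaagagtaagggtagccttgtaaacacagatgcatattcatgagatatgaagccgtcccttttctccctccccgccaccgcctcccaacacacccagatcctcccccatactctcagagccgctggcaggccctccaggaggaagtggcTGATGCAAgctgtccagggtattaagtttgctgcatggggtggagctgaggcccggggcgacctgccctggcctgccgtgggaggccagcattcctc

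Whether SIRT6 and its acetylation mutants change the response was asked within each line with construct and batch as terms (n = 3 libraries per construct). In H1299, 5 of the 35 genes were higher in K3Q than in WT cells: PYCR1, EIF4EBP1, SHMT2, PSPH and SLC7A5. All 35 log2 changes were positive, with a median of 0.64, and the 5 passed in edgeR's quasi-likelihood test with Benjamini-Hochberg adjustment, while 3.46% of all 16262 tested genes passed. By role they were 2 of 6 serine and one-carbon enzymes, 1 of 7 other enzymes, 1 of 7 transporters and 1 of 8 stress effectors. The count fell to 0 in some other fits. Of the 35 genes 26 were higher in K3Q at all 3 library numbers. The same 5 genes were positive but did not pass against K3R, where all 35 changes were positive with a median of 0.49.

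PYCR1 had 177, 116 and 106 CPM in K3Q libraries 1-1, 1-2 and 2-2, against 115, 82.2 and 93.9 CPM in K3R, 109, 66.8 and 62.2 CPM in WT and 108, 78.01 and 105 CPM in Ctr libraries. It was higher in K3Q than in WT and K3R cells at each library number, and its K3Q values overlapped with those of the other 3 constructs. The change against WT was 0.79 on the log2 scale (SE 0.14, 1.73-fold, adjusted p = 0.0099). EIF4EBP1 had 198, 138 and 133 CPM in K3Q libraries 1-1, 1-2 and 2-2, against 122, 103 and 104 CPM in K3R, 112, 86.8 and 72.5 CPM in WT and 143, 102 and 157 CPM in Ctr libraries. Every K3Q value lay above every WT and K3R value. The change against WT was 0.82 on the log2 scale (SE 0.15, 1.76-fold, adjusted p = 0.012). SHMT2 had 405, 259 and 281 CPM in K3Q libraries 1-1, 1-2 and 2-2, against 235, 192 and 204 CPM in K3R, 239.95, 174 and 149.99 CPM in WT and 226, 185 and 293 CPM in Ctr libraries. Its K3Q values were above all WT and K3R values too, with a change of 0.78 on the log2 scale (SE 0.17, 1.71-fold, adjusted p = 0.0279) against WT. PSPH had 94.2, 63.3 and 72.3 CPM in K3Q libraries 1-1, 1-2 and 2-2, against 62.6, 45.2 and 51.00 CPM in K3R, 67.03, 42.9 and 41.8 CPM in WT and 66.8, 47.1 and 72.9 CPM in Ctr libraries. The K3Q values were above all K3R values but overlapped with WT, and the change against WT was 0.64 on the log2 scale (SE 0.15, 1.56-fold, adjusted p = 0.0363). SLC7A5 had 1425, 829.6 and 1051 CPM in K3Q libraries 1-1, 1-2 and 2-2, against 648, 516 and 638 CPM in K3R, 707, 479 and 363 CPM in WT and 687, 614 and 1321 CPM in Ctr libraries. All K3Q values were above those of WT and K3R, while Ctr 2-2 was nearly as high as K3Q 1-1. The change against WT was 1.13 on the log2 scale (SE 0.28, 2.19-fold, adjusted p = 0.0444).

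The next 3 genes by p did not pass. SLC3A2 had 557, 360.00 and 417 CPM in K3Q libraries 1-1, 1-2 and 2-2, against 324, 254 and 341 CPM in K3R, 331, 248 and 239 CPM in WT and 329, 279.9 and 520.3 CPM in Ctr libraries. GPT2 had 78.6, 53.6 and 67.4 CPM in K3Q libraries 1-1, 1-2 and 2-2, against 55.7, 43.9 and 45.5 CPM in K3R, 58.6, 41.5 and 36.5 CPM in WT and 49.6, 48.3 and 79.1 CPM in Ctr libraries. Their K3Q values were above WT at each number, and those of SLC3A2 were above all WT and K3R values. ATF4 had 523, 305 and 403 CPM in K3Q libraries 1-1, 1-2 and 2-2, against 368, 237 and 213 CPM in WT libraries, higher at each number but overlapping. The log2 changes against WT were 0.74 for SLC3A2, 0.63 for ATF4 and 0.59 for GPT2 (adjusted p = 0.0769, 0.109 and 0.118, edgeR quasi-likelihood). The count of 5 varied. It was 12 with the library number as a block, which added ATF4, SLC3A2, SLC1A5, GPT2, CTH, CBS and ALDH18A1. It was 7 with DESeq2, but 0 with no batch term, 0 in batch 2 alone and 0 with 1-1 and 1-2 summed. It was 0 without K3Q 1-1 and 1 (PYCR1) without WT 2-2. It was 2 (PYCR1 and EIF4EBP1) without WT 1-1, WT 1-2 or K3Q 1-2, and 3 (PYCR1, EIF4EBP1 and SHMT2) without K3Q 2-2. The shares of all genes that passed in these other fits of K3Q against WT are not reported here. The counts of 12 and 7 therefore cannot be read as particular to the genes of the response. SIRT6 reads were at 10298 to 14062 CPM in H1299 K3Q cells against 2307 to 6319 CPM in WT cells, and the mutation and the level of the transgene cannot be told apart.

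**Figure D4:**
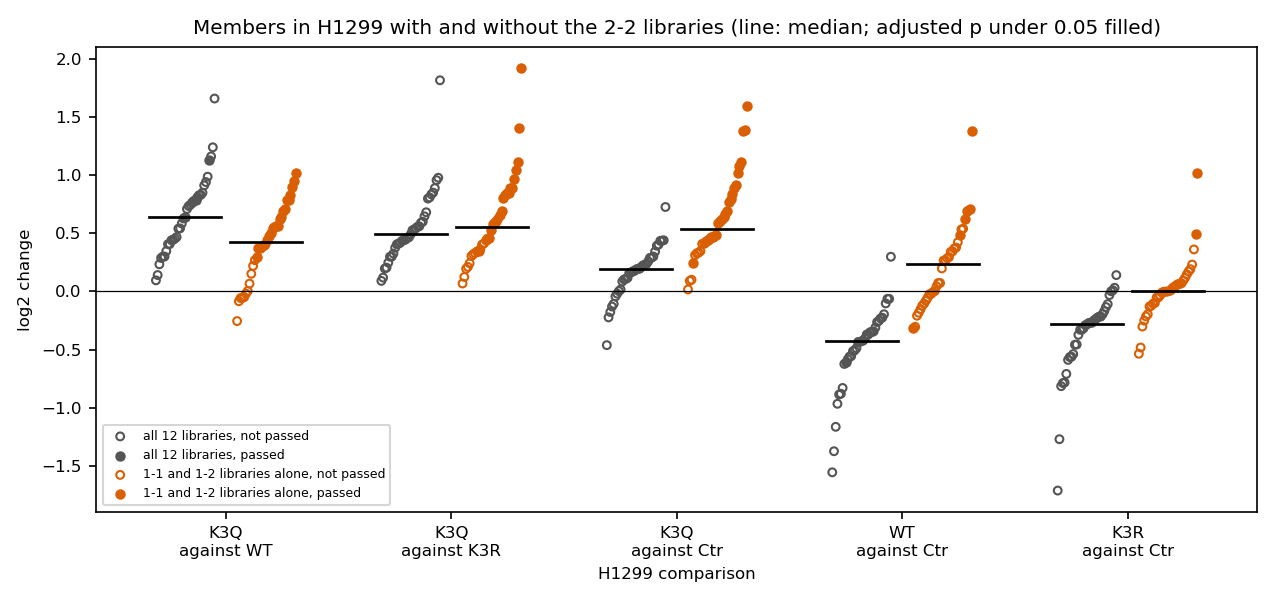
Log2 changes of the 35 genes (points) in 5 comparisons of constructs in H1299, once over all 12 libraries and once over the 1-1 and 1-2 libraries alone, with a line at the median. K3Q against WT has a median of 0.64 over all libraries and 0.42 over 1-1 and 1-2, and WT against Ctr has -0.43 and 0.23.

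K3Q against K3R passed 0 of the 35 genes in H1299, beside 0.449% of all genes. The lowest adjusted p was 0.127, of PSPH, which had a log2 change of 0.56 (SE 0.15). At an unadjusted p under 0.05 there were 8 genes, DESeq2 passed 3 (PSPH, SHMT2 and EIF4EBP1), and the block by library number passed 4, those 3 and PYCR1 (3.23% of all genes). In 5 genes (PSPH, SHMT2, SLC7A5, SLC3A2 and EIF4EBP1) every K3Q library was above every K3R library. K3R against WT passed 0 of 35 and 0% of all genes, with 1 gene at an unadjusted p under 0.05, 0 by DESeq2, and a median log2 change of 0.10.

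Against the empty vector, H1299 WT cells had 1 gene that passed, EIF4EBP1, which fell by 0.60 on the log2 scale (SE 0.15, adjusted p = 0.0366, edgeR quasi-likelihood). Of all genes 4.05% passed. In WT cells 34 of 35 changes were negative, with a median of -0.43, 8 genes had an unadjusted p under 0.05 and DESeq2 passed 1. The call of EIF4EBP1 was lost without Ctr 2-2 and without any of WT 1-1, WT 1-2 or WT 2-2, and SLC7A5 joined it without Ctr 1-1. H1299 K3R cells passed 0 of 35 genes against Ctr beside 3.25% of all genes, with a median of -0.28, 2 genes at an unadjusted p under 0.05 and 0 by DESeq2. H1299 K3Q cells passed 0 of 35 beside 0.0615%, with 28 positive changes, a median of 0.19, 2 genes at an unadjusted p under 0.05 and 0 by DESeq2. Of these, PYCR1 had a log2 change of 0.44 (SE 0.14, adjusted p = 0.345). These 3 comparisons share the Ctr libraries.

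The comparisons with Ctr moved with library 2-2. Without Ctr 2-2 the H1299 medians were 0.14 for WT, 0.20 for K3R and 0.77 for K3Q. Over 1-1 and 1-2 alone, which both carry biological replicate 1 so that the spread may be that of libraries only, K3Q cells had 25 of 34 genes higher than Ctr and 0 lower, with a median of 0.54 and 12.2% of all genes passing. There CHAC1 was higher by 1.60 (adjusted p = 0.000581), DDIT4 by 1.39 (adjusted p = 0.0021), PCK2 by 1.12 (adjusted p = 0.0015), SLC7A5 by 0.77 (adjusted p = 0.00068) and ATF4 by 0.46 (adjusted p = 0.00361) in edgeR's quasi-likelihood test. In the same libraries WT cells had 5 genes higher than Ctr (DDIT3, STC2, PHGDH, SLC1A4 and SLC6A9) and 1 lower, EIF4EBP1, with 8.96% of all genes passing. K3R cells had PHGDH and SLC6A9 higher than Ctr, with 7.22% passing. K3Q against WT had 21 genes higher, with 24.2% of all genes passing, and K3Q against K3R had 21 higher, with 7.76% passing. The share of the 35 genes was thus above that of all genes in each K3Q comparison.

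In A549 the 35 genes passed 0 times in each of the 6 comparisons of constructs. These fits had no term for the library number, so the 2-2 rise of WT, K3R and Ctr cells counted as spread. The 0 calls therefore do not show that the constructs had no effect. Of all 16120 genes 0.105% passed for WT against Ctr, 0.118% for K3R against Ctr, 0.0248% for K3Q against Ctr, 0% for K3R set against WT, and 0.00620% each for K3Q set against WT and against K3R. At an unadjusted p under 0.05 there were 0 of the 35 genes in each, and DESeq2 passed 0 in each. Same-numbered WT, K3R and Ctr libraries deviated together, while pairs with K3Q 2-2 did so weakly. With the library number as a block and K3Q 2-2 left out, a fit chosen after seeing the data, STC2 passed as higher and VLDLR as lower in WT and in K3R against Ctr cells (4.14% and 3.38% of all genes passing). In K3Q against Ctr cells ASNS then passed as higher and VLDLR as lower (1.22% of all genes). The median log2 changes were 0.03, 0.00, -0.38, 0.03, -0.35 and -0.37 in the same order. K3Q cells had 32, 31 and 33 negative changes against Ctr, WT and K3R. These signs turned without the 2-2 libraries: over 1-1 and 1-2 alone, 29, 32 and 33 of the 35 changes were positive, with medians of 0.17, 0.18 and 0.18. Without Ctr 2-2 the K3Q median against Ctr was 0.10, and without K3Q 2-2 it was -0.11.

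The lowest p in A549 was that of VLDLR in K3Q against Ctr cells, where the log2 change was -1.08 on the log2 scale (SE 0.53, adjusted p = 0.614) in edgeR's quasi-likelihood test. VLDLR and SHMT2 were the only genes of the 35 whose K3Q libraries all lay below the Ctr libraries. At library numbers 1-1, 1-2 and 2-2, VLDLR differed from Ctr by -0.39, -0.53 and -0.44 in WT cells and by -0.53, -0.55 and -0.45 in K3R cells on the log2 scale. SHMT2 differed by -0.07 (SE 0.08) there and by -0.11 (SE 0.08) in WT against Ctr cells. STC2 had the largest positive change of WT against Ctr, 0.44 with an SE of 1.03. Over 1-1 and 1-2 alone ASNS and MTHFD2 were higher in K3Q than in Ctr cells, by 1.23 (adjusted p = 0.0474) and 0.50 (adjusted p = 0.0284), with 1.81% of all genes passing. VLDLR was lower in K3R than in Ctr cells there, with a log2 change of -0.53 (adjusted p = 0.0259), with 2.44% passing, by edgeR's quasi-likelihood test.

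The lines were compared for their construct effects over all 24 libraries and 18102 genes. The difference between A549 and H1299 passed 0 of the 35 genes for WT against Ctr, K3R against Ctr and K3Q against Ctr, while 0.735%, 0.475% and 0.0166% of all genes passed. At an unadjusted p under 0.05 there were 1, 0 and 1 genes, and DESeq2 passed 0 in each. Over 1-1 and 1-2 alone, which both carry biological replicate 1, the K3Q difference passed 5 genes: PHGDH, SHMT2, SLC7A5, SLC6A9 and PYCR1. For each of them the change of K3Q against Ctr, not the level, was lower in A549 than in H1299. The WT difference passed SLC6A9 there. The shares of all genes that passed over these libraries are not reported here, so the counts cannot be read as particular to the 35 genes.

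The level of the genes without introduced SIRT6 was read from the Ctr cells, per kilobase of annotated exon (GENCODE 29). SLC7A5 led both lines, at 746 ± 207 CPM per kilobase in A549 and 184 ± 81.9 in H1299 (SD, n = 3 each). In A549 it was followed by SLC3A2 at 225 ± 51.3, PSAT1 at 196 ± 92.8, DDIT4 at 177 ± 67.2 and ATF4 at 155 ± 26.3 CPM per kilobase. In H1299 the next were PSAT1 at 159 ± 71.96, ATF4 at 140.2 ± 40.7, EIF4EBP1 at 125 ± 26.6 and SLC38A2 at 94.8 ± 48.3 CPM per kilobase. The lowest were NUPR1, at 0.709 ± 0.574 in A549 and 0.0467 ± 0.0424 in H1299, with ASNS next in A549 at 0.843 ± 0.729 and SLC6A9 next in H1299 at 1.54 ± 1.63 CPM per kilobase. In each line 33 of the 34 neighbours in this order overlapped in their 3 libraries. The exceptions were SLC7A5 over SLC3A2 in A549 and SLC6A9 over NUPR1 in H1299.

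**Figure D5:**
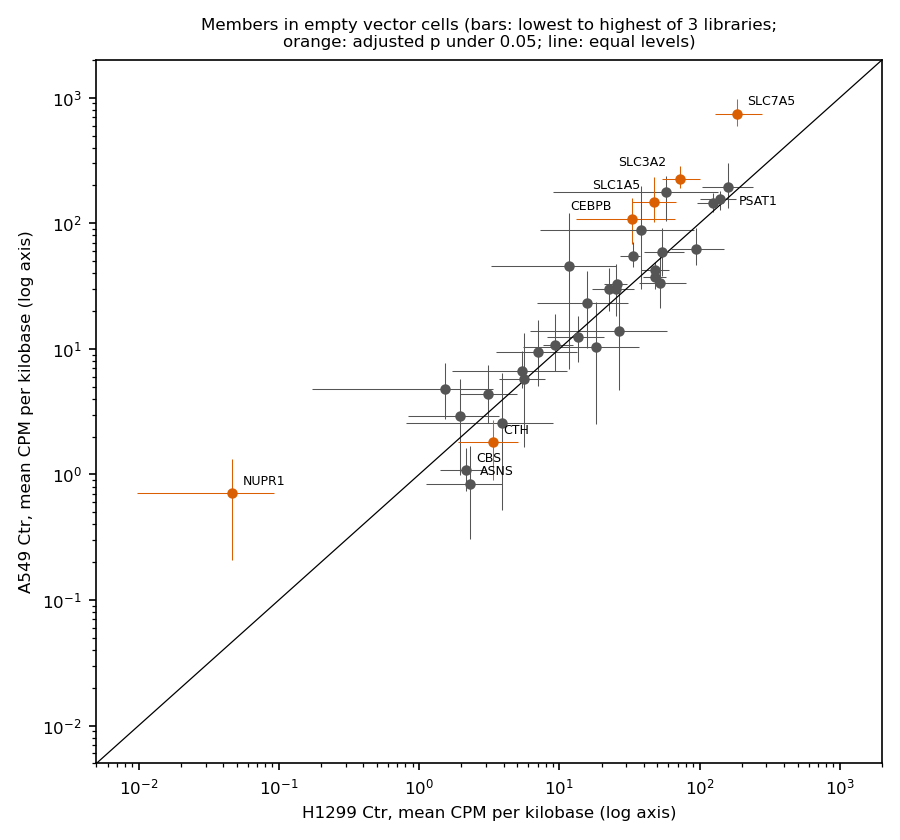
Mean CPM per kilobase of the 35 genes in Ctr cells, A549 beside H1299, on a log axis, with bars from the lowest to the highest of 3 libraries. SLC7A5 is the highest in both lines, at 746 in A549 and 184 in H1299, and the bars of most neighbours overlap.

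Between the Ctr cells of the 2 lines 6 of the 35 genes passed, 5 higher and 1 lower in A549, while 65.5% of all tested genes passed. In this fit the share of the 35 genes was thus below that of all genes, but the count rose in other fits given below. SLC7A5 had 2827, 3138 and 4659 CPM in A549 Ctr libraries 1-1, 1-2 and 2-2, against 687, 614 and 1321 CPM in H1299 Ctr libraries. SLC3A2 had 997, 1029 and 1473 CPM in A549 Ctr libraries 1-1, 1-2 and 2-2, against 329, 279.9 and 520.3 CPM in H1299 Ctr libraries. The lowest A549 value of each gene was above its highest H1299 value. SLC7A5 was higher by 1.94 on the log2 scale (SE 0.27, 3.84-fold, adjusted p = 3.47e-06) and SLC3A2 by 1.57 on the log2 scale (SE 0.22, 2.98-fold, adjusted p = 3.65e-06) in edgeR's quasi-likelihood test. SLC1A5 had 342, 364 and 781 CPM in A549 Ctr libraries 1-1, 1-2 and 2-2, against 139.98, 109 and 228 CPM in H1299 Ctr libraries. CEBPB had 196, 134 and 309.6 CPM in A549 Ctr libraries 1-1, 1-2 and 2-2, against 37.6, 25.9 and 131 CPM in H1299 Ctr libraries. Both were higher in A549 in every library, by 1.56 (adjusted p = 0.000768) and 1.72 (adjusted p = 0.00468) on the log2 scale, edgeR quasi-likelihood. NUPR1 had 3.32, 1.18 and 7.57 CPM in A549 Ctr libraries 1-1, 1-2 and 2-2, against 0.212, 0.0551 and 0.528 CPM in H1299 Ctr libraries, where the H1299 values rest on 5, 1 and 10 reads. Its log2 change was 3.89 on the log2 scale (SE 0.84, adjusted p = 0.00042). CTH had 6.57, 4.31 and 2.16 CPM in A549 Ctr libraries 1-1, 1-2 and 2-2, against 7.32, 4.58 and 12.3 CPM in H1299 Ctr libraries. Its libraries overlapped, and it was lower in A549, with a change of -1.05 on the log2 scale (SE 0.39, adjusted p = 0.0225), a call that was lost without A549 Ctr 1-1, A549 Ctr 2-2 or H1299 Ctr 2-2. The count of 6 was 5 without A549 Ctr 1-1, 11 without H1299 Ctr 2-2 and 9 without A549 Ctr 2-2 or H1299 Ctr 1-1. It was 18 with the library number as a block and 25 over 1-1 and 1-2 alone. The shares of all genes in those fits are not reported here, so whether the 35 genes stayed below them is not shown.

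Other genes around the pathway were counted in 5 lists. In A549 2-2 against 1-2, where 36.0% of all genes passed in either direction, other stress-induced targets of ATF4 passed as higher in 11 of 13 tested genes and as lower in 1, with SESN2, a sestrin that restrains mTORC1, at 2.43 and GDF15, a secreted stress cytokine, at 1.55 on the log2 scale. Of the eIF2 kinases, eIF2 and its partners 3 of 15 were higher and 0 lower, a share below that of all genes, among them PPP1R15A at 2.03, the stress-induced subunit of the phosphatase that reverses eIF2 phosphorylation. Cytosolic tRNA synthetases were higher in 11 and lower in 6 of 20, with CARS1, which charges cysteine tRNA, at 1.27. The XBP1 and ATF6 arms of the unfolded protein response were split, with 5 higher and 6 lower of 16, XBP1 at 1.54. Other folate and methionine cycle enzymes were mostly lower, 8 of 13 against 2 higher, with TYMS, which makes thymidylate, at -0.74 on the log2 scale.

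In H1299 2-2 against 1-2, where 12.4% of all genes passed, the other stress-induced targets of ATF4 passed as higher in 10 of 12 tested genes and as lower in 0, with GDF15 at 4.43 and HMOX1, a haem oxygenase, at 1.65. The remaining lists had 1 higher and 2 lower of 15 (eIF2 and partners), 5 and 3 of 20 (tRNA synthetases), 3 and 2 of 16 (unfolded protein response) and 1 and 3 of 13 (folate and methionine cycles). In H1299 K3Q against WT cells, 1 of 20 tRNA synthetases passed, QARS1, the glutamine enzyme, at 0.62, and 1 of 14 folate and methionine enzymes, AHCY, which clears S-adenosylhomocysteine, at 0.55, both higher in K3Q. The other 3 lists had 0 there. Against K3R, QARS1 at 0.55 was the one gene of the 5 lists that passed. Between A549 Ctr and H1299 Ctr cells 65.5% of all genes passed, and the shares of the 5 lists lay near or below that. The tRNA synthetases had 0 higher and 9 lower of 20, with VARS1, the valine enzyme, at -1.11 on the log2 scale. The unfolded protein response had 9 higher and 1 lower of 16, with EDEM1, a degradation factor of the endoplasmic reticulum, at 2.01. The eIF2 list had 4 higher and 6 lower of 15. Other stress-induced targets had 7 and 1 of 13, and folate and methionine enzymes 2 and 6 of 14.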

How the data were processed

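The authors deposited a table of raw counts of reads per gene symbol for 24 libraries. Per the labels' protocols, cells grew in serum-containing RPMI1640, their RNA was extracted by RNAiso Plus, and sequencing used libraries from a SMARTer mRNA kit. STAR, featureCounts, cutadapt, FastQC and the build GRCh38 are named in the submitters' processing notes. The sources used here give neither versions nor the strand setting of the counting, so reads of overlapping and antisense genes cannot be separated. ALDH1L2, ASNS, CEBPB, DDIT3, DDIT4, JDP2, MTHFD2, PYCR1, SHMT2, SLC1A5, SLC6A9, SLC7A5 and VLDLR share exon bases with a neighbour. Antisense transcripts cover 15.6% of the exon bases of PYCR1, 8.8% of SHMT2 and 5.7% of SLC7A5. A same-strand neighbour covers 14.1% of PYCR1.

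From these counts each line was fitted on its 12 libraries with edgeR 4.0.16 (R 4.3.3): filterByExpr, TMM scaling, construct and batch as terms, quasi-likelihood test, Benjamini-Hochberg adjustment over 16120 genes in A549 and 16262 in H1299. A gene passed at an adjusted p under 0.05. SE is the log2 change over the square root of F. Libraries 2-2 and 1-2 were compared within batch 2 with construct as a term. The test of 1 construct's shift against the others was added after seeing the data. CPM values are TMM-scaled. For log2 CPM the prior count was 2. Fits were tested on simulated data. For the comparisons of constructs the simulated counts were independent, with a fixed spread and no 2-2 shift. They do not check the fits under such a shift. DESeq2 1.42.0, other scaling and filters, each library left out, batch 2 alone, 1-1 and 1-2 alone or summed and a block by library number were tried as alternatives. Same-numbered libraries deviated together among A549 WT, K3R and Ctr (lowest correlation 0.481), so there the numbers pair the libraries. In H1299 the correlations ran from 0.175 to 0.672, so the pairing behind its block counts is uneven. Pairs with A549 K3Q 2-2 reached only 0.0734 to 0.15, so the A549 block is also given without it.

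Genes with values in every library are those that passed between constructs, ATF4, those of lowest p until 8 per line, and the 6 of largest passed change in the comparisons of 2-2 with 1-2 and of the lines. In the other lists up to 2 genes of lowest p are named, and 1 of them is not reported here. The 35 genes, the other lists and these rules were chosen with earlier results of these data known. Promoters are from RefSeq (GRCh38.p14), matched by symbol, and exon lengths from GENCODE 29.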

Additional observations from a re-analysis of the deposited data

Results flagged for a closer look

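In A549 the change between library 2-2 and library 1-2 in K3Q cells differed from that in WT, K3R and Ctr cells, by a fit of the difference itself (edgeR's quasi-likelihood test with Benjamini-Hochberg adjustment, 1 K3Q pair against 3 pairs). The fit was added after seeing the data, its K3Q arm is a single pair, and that pair is the one alike to a chi-square per degree of freedom of 2.60, against 16.11 or more elsewhere, so the values are a description. The difference was negative for all 31 of the 35 genes that passed. The 6 largest were -3.31 for CHAC1, -3.21 for STC2, -3.15 for NUPR1, -3.08 for ADM2, -2.85 for TRIB3 and -2.78 for ASNS on the log2 scale. In WT, K3R and Ctr cells all 6 genes were higher in 2-2 than in 1-2.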

How the results depend on the processing

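Of 1094 alternative values of single genes 963 kept their side of the threshold, 14 became calls and 117 lost one. Signs changed in 35 of them, none of which passed in either fit. List medians changed sign too: K3Q against Ctr in A549 (-0.38) was 0.17 over 1-1 and 1-2, and WT against Ctr in H1299 (-0.43) was 0.23 there and 0.14 without Ctr 2-2. Without a filter on low counts, fits called 1 gene for A549 WT against Ctr, 9 for K3Q against Ctr, 9 against WT and 11 against K3R. In H1299 they called 15 for WT, 10 for K3R and 1 for K3Q against Ctr, and, with K3Q, 24 over WT and 21 over K3R. The differences between lines had 7 (WT), 6 (K3R) and 9 (K3Q), the 2 Ctr groups 25, and the shift differences 4 (A549 Ctr), 17 (H1299 WT), 2 (H1299 K3Q) and 14 (H1299 Ctr). The cause was not tested. No shares of all genes are given in this section, so a change in a count cannot be read as particular to the 35 genes. Over 1-1 and 1-2 alone the counts were 1 (A549 K3R against Ctr), 2 (A549 K3Q against Ctr), 6, 2 and 25 (H1299 WT, K3R and K3Q against Ctr), 21 (K3Q against WT), 21 (K3Q against K3R), 1 and 5 (line differences for WT and K3Q) and 25 (A549 against H1299 Ctr). With a replicate block the counts were 12 (H1299 K3Q against WT), 4 (K3Q against K3R) and 18 (A549 against H1299 Ctr). No other call count changed with the block: A549 stayed at 0. With a replicate block but without A549 K3Q 2-2, chosen after seeing the data, WT, K3R and K3Q against Ctr had 2 each. DESeq2 gave 3 for H1299 K3Q against K3R. H1299 WT against Ctr and K3Q against WT had 0 each without the batch term, in batch 2 alone, and with 1-1 and 1-2 summed. The H1299 comparison of 2-2 with 1-2 had 13 without the construct term, and the A549 one 0 with K3Q. Leaving out 1 library or construct at a time gave 0 to 2 for H1299 WT against Ctr, 0 to 3 for K3Q against WT, 32 to 34 and 12 to 28 for 2-2 against 1-2 in A549 and H1299, and 5 to 11 for the 2 Ctr groups. For the shift differences it gave 25 to 32 (A549 K3Q), 0 to 7 (A549 Ctr), 1 to 18 (H1299 WT), 0 to 1 (K3R), 0 to 19 (K3Q) and 3 to 31 (Ctr). The remaining comparisons stayed at 0. NUPR1 in H1299 (1 to 10 reads in Ctr libraries) is limited by depth.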
